A study of Mus musculus with 12 samples.

Results

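The genes described here are 10 members of the transforming growth factor beta (TGF-beta) pathway, picked by gene symbol from the 17090 genes of the deposited expression table. They are 4 ligand genes (Tgfb1, Tgfb2, Tgfb3 and Inhba), 4 receptor genes (Tgfbr1, Tgfbr2, Tgfbr3 and Acvrl1), and Smad7 and Tgfbi, which are known as genes that the pathway switches on. All 10 symbols were present, and all 10 passed the filter on low values, set at 1 CPM or more in any 3 of the 12 libraries. Tgfbr3 reached 1 CPM in 11 libraries and the other members in all 12. CPM gives the reads of a gene relative to the size of its library, with the authors' scaling between libraries.

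The RNA came from primary keratinocytes from the skin of K14-SmoM2 mice. These mice model basal cell carcinoma: the keratin 14 promoter directs an active form of Smoothened, the signalling component of the Hedgehog pathway, to the epidermis. All 4 groups share that genotype, isolation 5 weeks after tamoxifen, EpiLife medium with 60 µM calcium, 10 ng/ml EGF, and the kinase inhibitor Y-27632 at 10 µM. The siControl group received a non-targeting small interfering RNA (siRNA) and the siYAP1+TAZ group a pair of siRNA pools against Yap1 and TAZ (gene symbol Wwtr1), each transfected at 8 pmol per cm2 with Lipofectamine RNAiMAX. The adeno-GFP group received a type 5 adenovirus that expresses green fluorescent protein, and the adeno-TEADi group one that expresses TEADi, an inhibitor of the TEAD transcription factors. Both viruses carried a CMV promoter, lacked E1 and E3, and were used at a multiplicity of infection of 25. Treatment began a day after plating and cells were harvested 48 h later. Each group has 3 libraries, lettered A, B and C. Whether the lettered libraries are separate cultures or mice is not stated in the labels, and the p-values therefore reflect no more than the spread among them, which may be technical.

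TGF-beta and activin ligands bind pairs of type II and type I receptor kinases at the cell surface, and the type I receptor then phosphorylates the transcription factors SMAD2 and SMAD3. In epidermal keratinocytes the pathway is known to restrain proliferation and to induce matrix genes and its own inhibitors. YAP1 and TAZ are coactivators that lack a DNA-binding domain of their own and act mainly through the TEAD factors, and several matrix and cytoskeletal genes are known targets of both pathways.

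Depth on the deposited genes, estimated from the spacing of the lowest values, ranged from 19.97 to 29.02 M reads. The estimate is approximate, since only 83.9% to 86.1% of low values per library lay within 0.1 read of whole multiples. Yap1 was at 186.8 to 205.9 CPM in siControl and at 62.5 to 71.7 CPM in siYAP1+TAZ, and Wwtr1 was at 52.9 to 56.5 CPM in the former and 26.1 to 30.0 CPM in the latter. In adeno-GFP Yap1 was at 207.6 to 213.2 CPM and Wwtr1 at 55.0 to 59.9 CPM. In adeno-TEADi Yap1 was lower, at 175.0 to 183.5 CPM, and Wwtr1 higher, at 77.5 to 81.9 CPM. The 10 keratinocyte markers summed to 46250 to 50111 CPM in every library, with Krt5 and Krt14 between 14031 and 19699 CPM each. Summed marker levels of fibroblasts were 4.32 to 12.5 CPM, of melanocytes 9.20 to 14.4 CPM and of endothelial cells 16.7 to 23.2 CPM. The summed immune markers were at 17.96 to 20.28 CPM in the control groups, at 50.8 to 52.7 CPM in siYAP1+TAZ and at 40.9 to 44.9 CPM in adeno-TEADi. Cd68, a lysosomal protein, made up most of that sum (means of 9.97 CPM in siControl and in adeno-GFP, 38.0 CPM in siYAP1+TAZ and 29.3 CPM in adeno-TEADi), and rose in both experiments. Lyz2 and Itgam rose in both as well, Lyz2 by log2 changes of 0.81 and 0.67 and Itgam by 0.46 and 0.79, and Csf1r fell in both (-0.66 and -0.85). The pan-leukocyte gene Ptprc, not tested, had means of 0.102 CPM in siControl, 0.175 CPM in siYAP1+TAZ, 0.133 CPM in adeno-GFP and 0.383 CPM in adeno-TEADi. Adgre1, Cd3e and Cd207 have no entry in the expression table, and the sum does not cover them. The immune list thus moved with both treatments, and its part in the results below was not tested.

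Set per kilobase of annotated exon, so that genes can be compared with one another, the members spanned a wide range in siControl. Tgfbi, a secreted matrix protein named for its induction by TGF-beta, had the highest level at 180 CPM per kb. The type II receptor gene Tgfbr2 followed at 38.5 CPM per kb, next to Inhba at 38.1 CPM per kb. Tgfb3 stood at 15.1 CPM per kb, above Tgfb1 at 6.83 CPM per kb, and Tgfb2 was low at 0.961 CPM per kb. The receptor genes Tgfbr1 and Acvrl1 were at 5.51 and 2.48 CPM per kb, Smad7 at 5.88 CPM per kb, and the coreceptor gene Tgfbr3 was the lowest at 0.205 CPM per kb. Lengths were those of all annotated exons together. With the longest transcript instead, the level of Tgfb1 was 13.4 CPM per kb, and Smad7 and Tgfbr1 changed places in siControl.

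**Figure D1:**
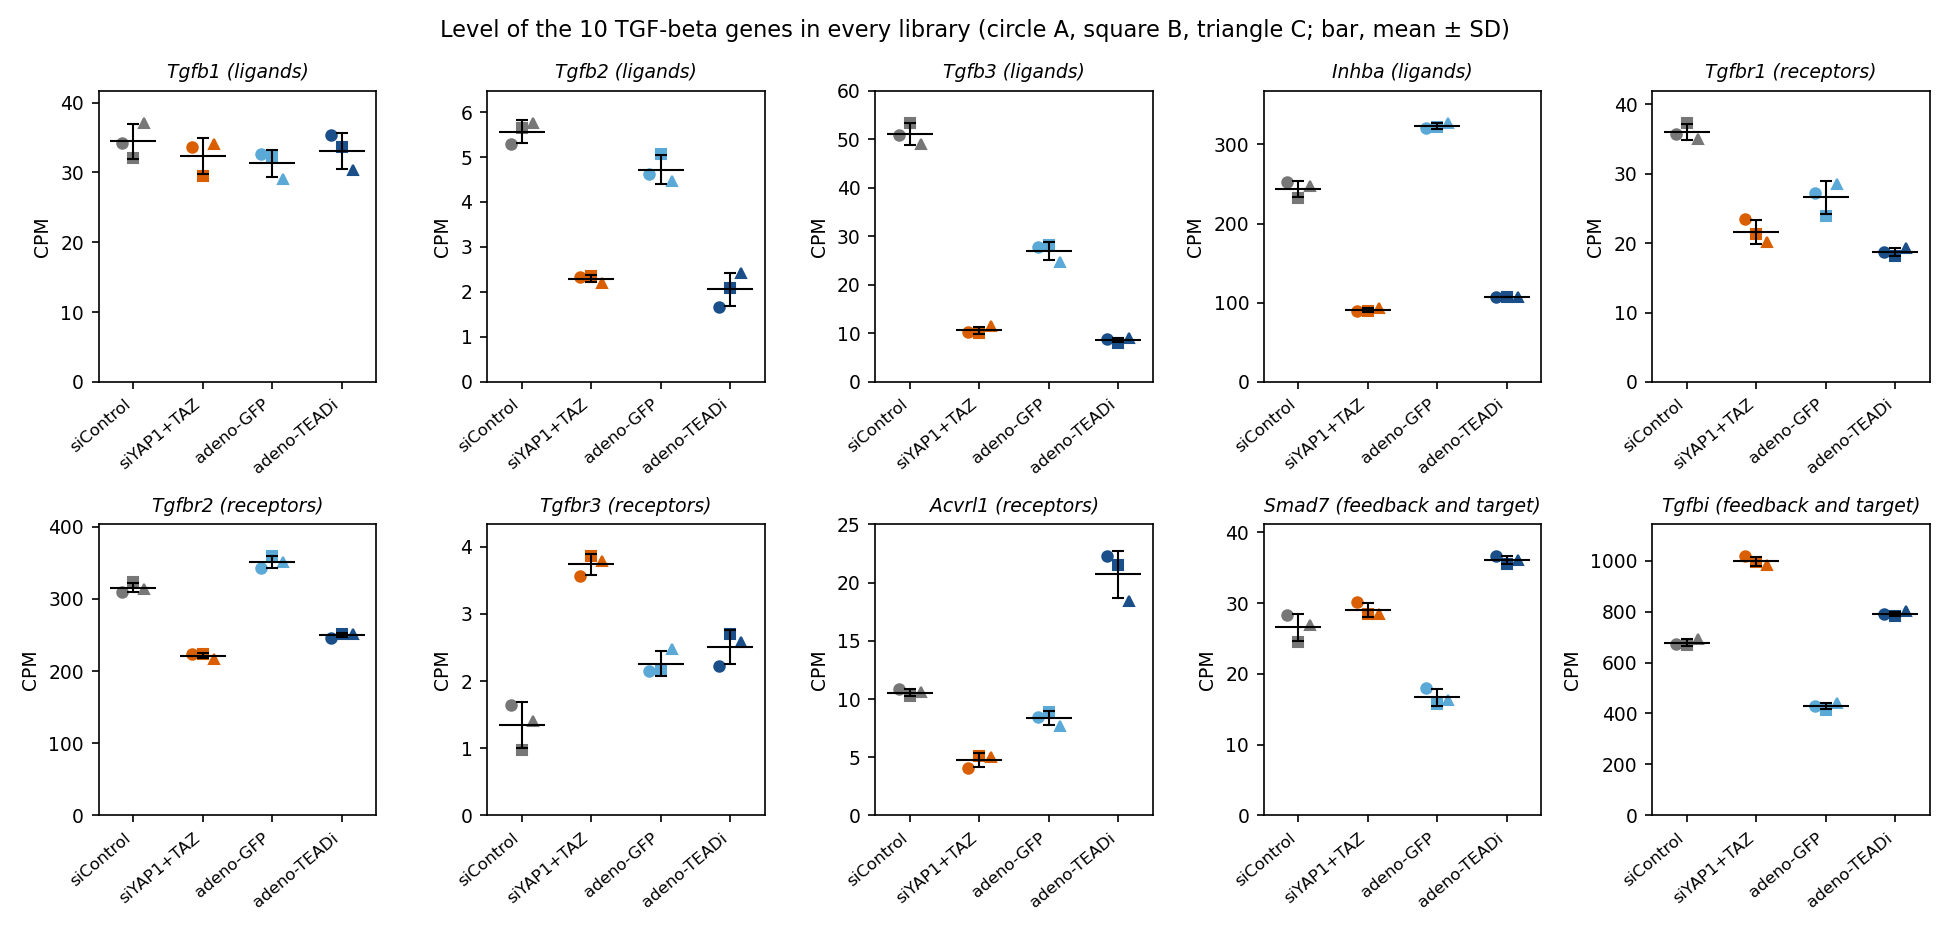
CPM of each of the 10 genes in each of the 12 libraries (points; circle A, square B, triangle C), with group means and SD (bars, n = 3), on linear axes that start at 0. Tgfb2, Tgfb3, Inhba, Tgfbr1 and Tgfbr2 lie lower in both treated groups than in their controls, Tgfbi lies higher in both, and Acvrl1 is lowest in siYAP1+TAZ and highest in adeno-TEADi.

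Of the 10 members, 8 passed the test between siYAP1+TAZ and siControl, 2 of them higher and 6 lower. The test was limma on log2(CPM + 1), two-sided, with Benjamini-Hochberg adjustment over all 12966 genes tested, and a gene passed at an adjusted p under 0.05. Among all genes tested 68.9% passed (32.7% higher and 36.1% lower), so a count of 8 in 10 is close to that background. In adeno-TEADi against adeno-GFP 8 of 10 members passed as well, 3 higher and 5 lower, where 59.8% of all genes tested passed (33.5% higher and 26.3% lower). The column totals differ between groups, and with the columns scaled to equal totals the calls over all genes moved from 4245 higher and 4687 lower to 2837 and 7146 in the knockdown comparison, whose median log2 change moved from -0.03 to -0.20. In the virus comparison they moved from 4339 higher and 3415 lower to 3034 and 4719, and the median from 0.03 to -0.06. In RNA from whole cultures, fewer cells of a type and less RNA per cell cannot be told apart, for the members as for any gene.

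The largest changes from control were those of ligand genes. Tgfb3 encodes the TGF-beta isoform best known from palate fusion and wound repair. It lies on chr12:86056745-86079041 (minus strand, mm10). Its level was 50.9, 53.4 and 49.0 CPM in siControl A, B and C, and 10.3, 10.2 and 11.5 CPM in siYAP1+TAZ A, B and C. With the viruses it was 27.8, 28.3 and 24.7 CPM in adeno-GFP and 8.75, 8.11 and 8.98 CPM in adeno-TEADi. The groups overlapped in neither comparison, and the siControl libraries held the highest values of the series. The mean in siYAP1+TAZ was 0.209 of that in siControl, a log2 change of -2.16 (SE 0.0662, limma adjusted p = 5.27e-16). In adeno-TEADi it was 0.320 of that in adeno-GFP, a log2 change of -1.54 (SE 0.0662, limma adjusted p = 1.35e-13). Tgfb3 was thus the member with the largest fall after the knockdown. The fall was 0.62 smaller on the log2 scale with the TEAD inhibitor (limma adjusted p of the difference = 2.00e-05), beside a control level in adeno-GFP that was itself 0.528 of the siControl level.

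Inhba encodes the beta A subunit whose dimer is activin A, a ligand that signals through its own receptors to the same SMAD2 and SMAD3. The gene lies on chr13:16011851-16031621 (plus strand, mm10). It was at 252, 232 and 247 CPM in siControl and at 89.2, 89.9 and 93.2 CPM in siYAP1+TAZ. The viral libraries had 321, 322 and 327 CPM in adeno-GFP and 107, 107 and 107 CPM in adeno-TEADi. No treated library came near a control library in either pair of groups. Inhba fell to 0.373 of its control mean after the knockdown (log2 change -1.41, SE 0.0375, limma adjusted p = 1.01e-16). It fell to 0.332 of it with the TEAD inhibitor (log2 change -1.58, SE 0.0375, limma adjusted p = 3.84e-17). The difference between these effects, -0.17, passed (limma adjusted p = 0.0119) but did not with equal column totals, where it was -0.08 (limma adjusted p = 0.226).

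Tgfb2, the third TGF-beta isoform gene, lies on chr1:186622792-186705989 (minus strand, mm10) and was expressed at a low level. It was at 5.28, 5.65 and 5.76 CPM in siControl and at 2.34, 2.35 and 2.20 CPM in siYAP1+TAZ. Levels in adeno-GFP were 4.62, 5.08 and 4.47 CPM, against 1.67, 2.09 and 2.41 CPM in adeno-TEADi. All 6 treated libraries lay below all 6 control libraries, and the ranges of the treated groups overlapped with each other. The log2 change was -0.99 after the knockdown (SE 0.0958, limma adjusted p = 1.74e-08) and -0.91 with the TEAD inhibitor (SE 0.0958, limma adjusted p = 9.22e-08). The pseudocount of 1 CPM shrinks changes at this level, and the plain ratios of means were 0.413 and 0.436. The difference between the effects was 0.08 with an interval from -0.20 to 0.37 and did not pass (limma adjusted p = 0.635).

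Tgfb1, on chr7:25687002-25705077 (plus strand, mm10), encodes the isoform that is most widely expressed across tissues. It was at 34.2, 32.0 and 37.1 CPM in siControl and at 33.6, 29.5 and 34.1 CPM in siYAP1+TAZ. In adeno-GFP it was at 32.6, 32.3 and 29.1 CPM and in adeno-TEADi at 35.4, 33.7 and 30.3 CPM. The ranges of all groups next to each other in rank overlapped, and the highest group mean was 1.10 times the lowest. Neither the knockdown (log2 change -0.09, interval -0.23 to 0.06, limma adjusted p = 0.281) nor the TEAD inhibitor (0.08, interval -0.07 to 0.22, limma adjusted p = 0.354) gave a change that passed. With equal column totals the first became -0.27 and passed (limma adjusted p = 0.00123), and the second became -0.02 and did not.

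Per kilobase of exon, the 3 TGF-beta isoform genes together summed to 22.9 ± 0.182 CPM per kb in siControl and to 9.97 ± 0.659 CPM per kb in siYAP1+TAZ (SD, n = 3). The sum was 15.0 ± 0.994 CPM per kb in adeno-GFP and 9.47 ± 0.407 CPM per kb in adeno-TEADi (SD, n = 3). Tgfb3 made up 66.0% of the sum in siControl and 31.6% in siYAP1+TAZ, and 53.1% in adeno-GFP and 26.9% in adeno-TEADi. Tgfb1 took the larger share in both treated groups, at 64.4% and 69.3%, against 29.9% in siControl and 41.4% in adeno-GFP. These shares did not overlap between groups in either comparison, and the exact two-sided permutation test gave 0.1, the smallest p that 3 against 3 libraries allow. With the longest transcripts the share of Tgfb3 was 51.1% in siControl, still above the 45.2% of Tgfb1, and 37.8% in adeno-GFP, below the 57.8% of Tgfb1. It was 19.5% and 16.1% in siYAP1+TAZ and adeno-TEADi.

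**Figure D2:**
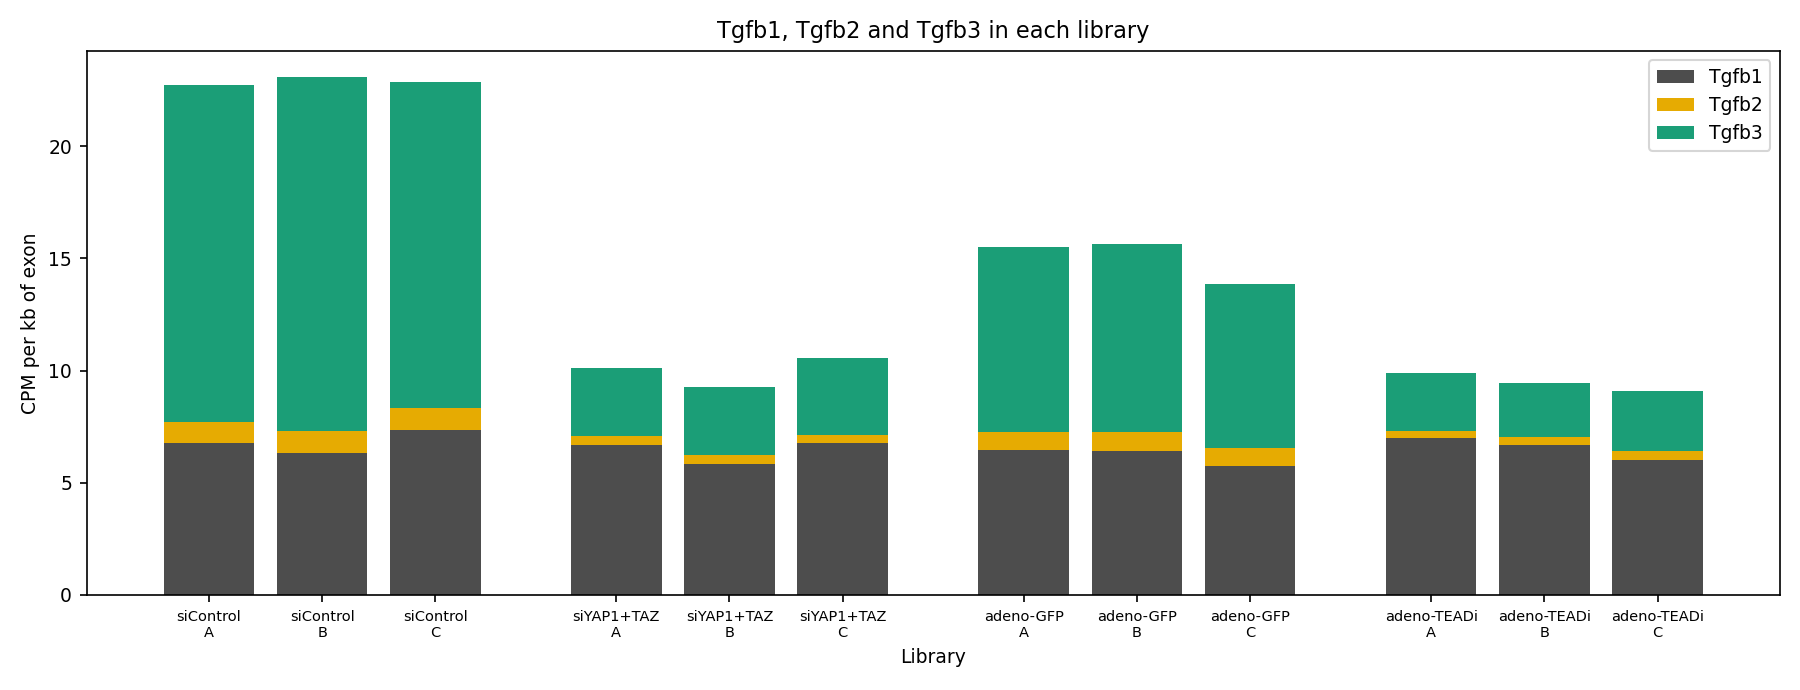
Level of Tgfb1, Tgfb2 and Tgfb3 in CPM per kb of annotated exon, stacked for each of the 12 libraries. The Tgfb3 part of the bars is the one that shrinks in siYAP1+TAZ and adeno-TEADi (31.6% and 26.9% of the sum), while the Tgfb1 part keeps about the same height in all 4 groups.

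The sequences before the start sites of 3 members are shown as examples of genes that moved the same way in both experiments: the ligand genes Tgfb2 and Inhba, which fell in both, and Tgfbi, which rose in both. They are from RefSeq on GRCm38.p6, which held 7 entries for 6 of the members (Tgfb1, Tgfb2, Inhba, Tgfbr1, Tgfbr2 and Tgfbi) among its 32851 promoter entries. Each shows the 250 bases before the start site, 5′ to 3′ on the strand of the gene, and capitals mark TATAAA and GTCTG or its reverse CAGAC. The positions are chr1:186705990-186706239 (minus strand) for Tgfb2, chr13:16011601-16011850 (plus strand) for Inhba and chr13:56609336-56609585 (plus strand) for Tgfbi.
Tgfb2: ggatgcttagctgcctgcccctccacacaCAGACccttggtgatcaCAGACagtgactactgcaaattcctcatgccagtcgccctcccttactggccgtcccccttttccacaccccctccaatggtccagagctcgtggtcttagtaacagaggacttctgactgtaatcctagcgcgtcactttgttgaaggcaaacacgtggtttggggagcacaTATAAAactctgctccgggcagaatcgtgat
Inhba: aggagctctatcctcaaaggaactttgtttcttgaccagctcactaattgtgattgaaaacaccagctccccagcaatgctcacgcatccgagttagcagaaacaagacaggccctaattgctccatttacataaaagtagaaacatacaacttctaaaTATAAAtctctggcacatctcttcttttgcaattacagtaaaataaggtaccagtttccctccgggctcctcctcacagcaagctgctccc
Tgfbi: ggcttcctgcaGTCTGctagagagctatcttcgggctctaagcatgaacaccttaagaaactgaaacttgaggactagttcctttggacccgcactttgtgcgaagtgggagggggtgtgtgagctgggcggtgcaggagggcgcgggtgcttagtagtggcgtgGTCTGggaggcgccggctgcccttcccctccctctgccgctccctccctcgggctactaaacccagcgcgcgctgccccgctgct
Motifs were searched on both strands in the whole entries, from 250 bases before to 50 after the start. The TEAD motif GGAATG, the AP-1 motif TGANTCA and the palindromic SMAD motif GTCTAGAC had no match in any of the 7 member entries. They had one in 14.7%, 7.81% and 0.213% of all promoter entries. Counted from the start base as 0, TATAAA began at -31 in Tgfb2 and at -91 in Inhba, and 13.6% of all entries hold it on one strand or the other. GTCTG or CAGAC, the core that SMAD3 is known to contact, began at -221 and -204 in Tgfb2, at -239 and -85 in Tgfbi, at -160 in Tgfbr2 and at -203 in 1 of the 2 entries of Tgfbr1, and 49.6% of all entries hold one. No match says only that these letters are not in these windows.

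Among the receptor genes, the pair that binds TGF-beta itself fell in both experiments. Tgfbr2, on chr9:116084293-116175360 (minus strand, mm10), encodes the type II receptor, which binds the ligand first. It was at 310, 323 and 314 CPM in siControl and at 223, 223 and 217 CPM in siYAP1+TAZ. In adeno-GFP it was at 342, 359 and 351 CPM and in adeno-TEADi at 246, 251 and 251 CPM. The groups did not overlap, and the falls were of like size. The log2 change was -0.51 after the knockdown (SE 0.0349, limma adjusted p = 9.05e-11) and -0.49 with the TEAD inhibitor (SE 0.0349, limma adjusted p = 2.91e-10). The difference between them was 0.02, with an interval from -0.08 to 0.13, and did not pass (limma adjusted p = 0.727).

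Tgfbr1, on chr4:47353222-47414931 (plus strand, mm10), encodes the type I receptor kinase that the type II receptor activates. Its level was 35.7, 37.3 and 35.1 CPM in siControl and 23.5, 21.3 and 20.1 CPM in siYAP1+TAZ. It was 27.3, 23.9 and 28.5 CPM in adeno-GFP and 18.7, 18.2 and 19.3 CPM in adeno-TEADi. Each treated group lay wholly below its own control group. Tgfbr1 fell to 0.601 of its control mean after the knockdown (log2 change -0.71, SE 0.0656, limma adjusted p = 9.02e-09). With the TEAD inhibitor it fell to 0.704 (log2 change -0.48, SE 0.0656, limma adjusted p = 3.11e-06). The difference of 0.23 passed narrowly (limma adjusted p = 0.0452) and did not pass in 9 of 18 alternatives, where the adjusted p reached 0.137. The ratio of Tgfbr2 to Tgfbr1 per kilobase was 6.99 ± 0.131 in siControl and 8.17 ± 0.530 in siYAP1+TAZ (SD, n = 3; exact two-sided permutation p = 0.1, the smallest possible). It was 10.6 ± 1.2 in adeno-GFP and 10.6 ± 0.342 in adeno-TEADi (SD, n = 3; exact two-sided permutation p = 1.0).

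Acvrl1, on chr15:101128522-101145336 (plus strand, mm10), encodes the type I receptor ALK1, best known from endothelial cells, where it binds BMP9 and BMP10. It was at 10.9, 10.2 and 10.6 CPM in siControl and at 4.09, 5.14 and 5.02 CPM in siYAP1+TAZ. By contrast it was at 8.48, 8.86 and 7.68 CPM in adeno-GFP and at 22.3, 21.5 and 18.4 CPM in adeno-TEADi. The knockdown libraries were the lowest of the series and the TEAD inhibitor libraries the highest, with no overlap between any groups. Acvrl1 fell to 0.450 of its control mean after the knockdown (log2 change -1.01, SE 0.0860, limma adjusted p = 2.59e-09). It rose to 2.48 times its control mean with the TEAD inhibitor (log2 change 1.22, SE 0.0860, limma adjusted p = 2.50e-10). The difference between the effects, 2.23 on the log2 scale (SE 0.122, limma adjusted p = 4.87e-11), was the largest of the 10 members, and both directions held under all alternatives run. Acvrl1 was the sole member that passed with opposite signs in the 2 experiments.

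The endothelial markers, given here because of that background, summed to 16.7 to 19.0 CPM in siControl and 17.1 to 19.4 CPM in siYAP1+TAZ. They summed to 17.6 to 21.5 CPM in adeno-GFP and 21.4 to 23.2 CPM in adeno-TEADi. Of 12 listed markers 11 have an entry and 9 were tested, and 3 rose and 2 fell after the knockdown while 3 rose and 1 fell with the TEAD inhibitor. These are 55.6% and 44.4% of the tested markers, below the 68.9% and 59.8% of all genes tested that passed. Egfl7, one of the most abundant, moved in the same directions as Acvrl1, with a log2 change of -0.42 after the knockdown (limma adjusted p = 0.000294) and of 0.39 with the TEAD inhibitor (limma adjusted p = 0.000808). The difference between its effects was 0.81 (limma adjusted p = 2.50e-05). Tie1 rose in both experiments (0.50 and 0.54), Vwf rose with the TEAD inhibitor (0.64), and Emcn (0.66) and Cdh5 (0.42) rose after the knockdown. Pecam1 fell in both (log2 changes -0.21 and -0.46), with group means of 4.52 to 6.59 CPM, and Cldn5 had the lowest means, 0.0625 to 0.178 CPM. The part of these markers in the Acvrl1 values was not tested. An antisense gene, Gm16031, shares 2.98% of the exon bases of Acvrl1. Whether the counting used strand is not given in the labels used here.

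Tgfbr3, on chr5:107106570-107289629 (minus strand, mm10), encodes betaglycan, a coreceptor that presents TGF-beta, above all the TGFB2 isoform, to the signalling receptors. It had the lowest level of the members in the control groups, while Tgfb2 had it in the treated groups. Its level was 1.65, 0.971 and 1.41 CPM in siControl and 3.56, 3.86 and 3.79 CPM in siYAP1+TAZ. With the viruses it was at 2.14, 2.16 and 2.48 CPM in adeno-GFP and at 2.22, 2.703 and 2.58 CPM in adeno-TEADi. The siRNA groups did not overlap and the virus groups did. Tgfbr3 rose to 2.78 times its control mean after the knockdown (log2 change 1.02, SE 0.109, limma adjusted p = 7.38e-08). The change with the TEAD inhibitor was 0.10, with an interval from -0.13 to 0.33, and did not pass (limma adjusted p = 0.438). The difference between the effects was -0.92 (limma adjusted p = 6.33e-05). At this level the pseudocount shrinks the log2 changes.

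Smad7 and Tgfbi, known as genes that TGF-beta induces, were not among the genes that fell in either experiment. Smad7, on chr18:75367529-75395935 (plus strand, mm10), encodes the inhibitory SMAD that blocks the type I receptor. It was at 28.3, 24.5 and 26.8 CPM in siControl and at 30.2, 28.5 and 28.4 CPM in siYAP1+TAZ. The viral groups had 18.02, 15.7 and 16.3 CPM in adeno-GFP and 36.6, 35.5 and 36.0 CPM in adeno-TEADi. The siRNA groups lay apart by a small margin and the virus groups by a wide one. The log2 change after the knockdown was 0.13 (SE 0.0600) and did not pass (limma adjusted p = 0.0675). It was -0.06 with equal column totals, and over the alternatives the adjusted p ranged from 0.0262 to 0.363. With the TEAD inhibitor Smad7 rose to 2.16 times its control mean (log2 change 1.07, SE 0.0600, limma adjusted p = 7.66e-12). The difference between the effects was 0.94 (limma adjusted p = 3.61e-08), beside an adeno-GFP level that was 0.628 of the siControl level.

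Tgfbi, on chr13:56609523-56639562 (plus strand, mm10), was the most abundant member. Its level was 673, 669 and 694 CPM in siControl and 1016, 995 and 981 CPM in siYAP1+TAZ. It was 430, 415 and 440 CPM in adeno-GFP and 789, 781 and 801 CPM in adeno-TEADi. Both treated groups lay above both control groups, with no overlap. Tgfbi rose to 1.47 times its control mean after the knockdown (log2 change 0.56, SE 0.0373, limma adjusted p = 6.77e-11). It rose to 1.85 times its control mean with the TEAD inhibitor (log2 change 0.88, SE 0.0373, limma adjusted p = 1.04e-13). The effects differed by 0.33 (limma adjusted p = 4.28e-05).

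**Figure D3:**
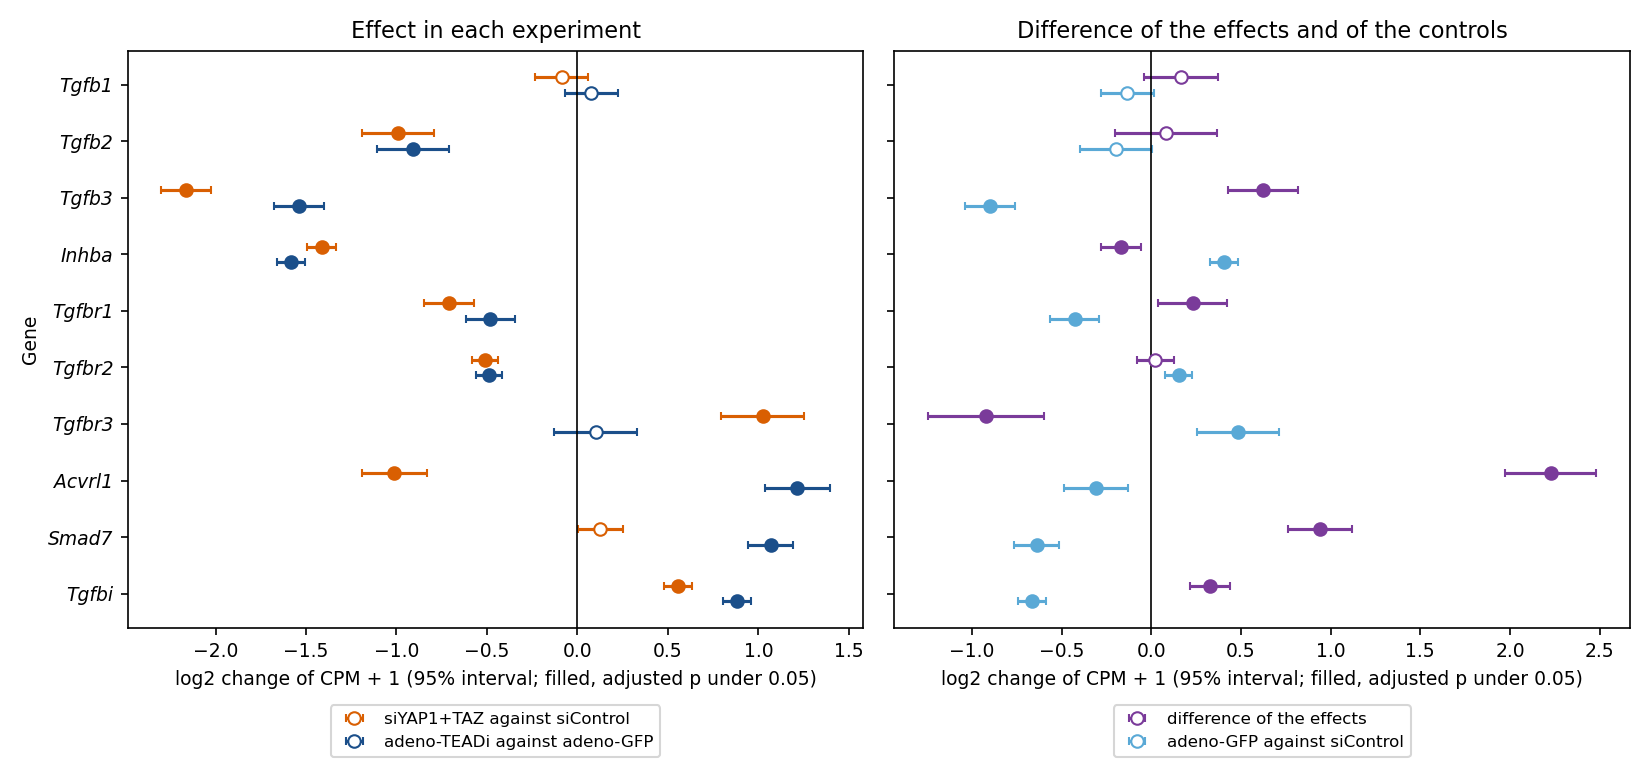
Log2 change of CPM + 1 of each gene with its 95% interval (limma, 3 libraries per group): left, both treatments against their own controls, and right, the TEAD inhibitor effect minus the knockdown effect and the difference of the control groups. Filled points passed at an adjusted p under 0.05, and Acvrl1 stands on opposite sides of 0 in the left panel (-1.01 and 1.22).

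The difference between the effects passed for 7 of the 10 members, 5 higher and 2 lower in the virus experiment, where 51.5% of all genes tested passed (26.4% higher and 25.1% lower). The virus and siRNA experiments differ in the way of delivery and in the control as well as in the target, and these cannot be told apart in that difference. The control groups themselves differed in 8 of the 10 members, 3 higher and 5 lower in adeno-GFP than in siControl, where 40.4% of all genes tested passed (18.7% higher and 21.8% lower). This comparison shares its libraries with the others. Relative to siControl, Tgfb3 was lower in adeno-GFP by a log2 change of -0.90 (limma adjusted p = 3.36e-09), Tgfbi by -0.66 (1.16e-10), Smad7 by -0.64 (8.41e-08), Tgfbr1 by -0.43 (3.45e-05) and Acvrl1 by -0.31 (0.00754). Tgfbr3 was higher by 0.49 (limma adjusted p = 0.00150), Inhba by 0.41 (6.56e-08) and Tgfbr2 by 0.15 (0.00181). Tgfb1 at -0.13 (limma adjusted p = 0.139) and Tgfb2 at -0.20 (0.107) did not pass. For Tgfbi, Smad7, Tgfb3, Tgfbr1 and Tgfbr3 the control groups thus lay apart by amounts that are not small beside the effects of treatment.

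The remaining genes of the pathway are given by list. Of 19 tested genes that store or activate latent TGF-beta, 7 rose and 9 fell after the knockdown, and 3 rose and 14 fell with the TEAD inhibitor. Over all genes tested 32.7% rose and 36.1% fell after the knockdown, and 33.5% rose and 26.3% fell with the TEAD inhibitor, shares against which this and the following lists are set. The median log2 changes of the list were -0.09 and -0.48, against -0.03 and 0.03 over all genes tested. Thbs1, a matrix protein that can activate latent TGF-beta, fell from 2825 ± 89.4 CPM to 396 ± 38.4 CPM and from 2453 ± 86.9 CPM to 362 ± 24.7 CPM (SD, n = 3). These are log2 changes of -2.84 and -2.76 (limma adjusted p = 1.60e-17 and 2.00e-17). Itgb6, the beta subunit of the epithelial integrin that activates latent TGF-beta, fell with log2 changes of -1.91 and -1.70. The protease genes Plat and Pcsk6 rose, by log2 changes of 2.20 and 1.90 after the knockdown. With the TEAD inhibitor Plat rose by 0.73, and Pcsk6 rose from 5.58 ± 0.216 CPM to 13.9 ± 1.36 CPM (SD, n = 3).

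Of 10 tested genes for activin-related, BMP and other family ligands and their binding proteins, 4 rose and 5 fell after the knockdown, and 2 rose and 6 fell with the TEAD inhibitor (medians -0.23 and -0.42). Fst, whose product follistatin binds and neutralises activin, fell from 323 ± 13.1 CPM to 110 ± 13.2 CPM after the knockdown and from 461 ± 14.6 CPM to 193 ± 0.861 CPM with the TEAD inhibitor (SD, n = 3). Inhba and its binding partner gene thus fell together. The ratio of Inhba to Fst in CPM was 0.757 ± 0.0612 in siControl and 0.836 ± 0.0932 in siYAP1+TAZ, which overlapped (SD, n = 3; exact two-sided permutation p = 0.6). It was 0.702 ± 0.0275 in adeno-GFP and 0.554 ± 0.00326 in adeno-TEADi, which did not (SD, n = 3; exact two-sided permutation p = 0.1, the smallest possible). Fstl3, a related activin-binding protein gene, fell in both (log2 changes -1.17 and -0.86). So did Fstl1 (-0.47 and -1.39) and Gdf11 (-1.11 and -1.27). Bmp7 rose in both, by 1.15 and 0.47, and so did Bmp3, by 0.29 and 0.42. Bmp6 rose by 0.73 after the knockdown and did not pass with the TEAD inhibitor (-0.09).

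Of 9 other tested receptor genes of the family, 6 rose and 2 fell after the knockdown (median 0.33), and 1 rose and 4 fell with the TEAD inhibitor (median -0.23). The count of 1 became 2 in 8 alternatives. Bambi, a pseudoreceptor that lacks the kinase domain, rose by 1.22 and the BMP receptor gene Bmpr1a by 0.54 after the knockdown. The activin receptor gene Acvr1b rose in both, by 0.33 after the knockdown and by 0.34 with the TEAD inhibitor. Bmpr1b fell in both (log2 changes -1.01 and -1.12), as did Acvr1 (-0.36 in each).

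Of the 5 SMAD genes tested, 1 rose and 3 fell after the knockdown, and 1 rose and 2 fell with the TEAD inhibitor. Smad3, which carries the TGF-beta signal to DNA, fell (log2 changes -0.49 and -0.33), and so did Smad5 (-0.20 and -0.23). Smad1, which carries BMP signals, rose by 0.81 and 0.20, the latter not with equal column totals. Of 22 regulators of SMAD proteins, 14 rose and 6 fell after the knockdown, and 13 rose and 8 fell with the TEAD inhibitor (median 0.17 in both). Of all genes tested 32.7% and 33.5% rose. The count of 14 became 8 with equal column totals and with quantile normalization. The deubiquitinase gene Usp4 rose by 1.17 and 0.65. The ubiquitin ligase gene Rnf111 rose by 0.71 and 0.18, and Wwp2, of the same kind, by 0.17 and 0.49. The 0.17 of Wwp2 is about as large as the shift of the knockdown median with equal column totals, from -0.03 to -0.20. The coregulator gene Cited2 fell in both (log2 changes -0.99 and -1.63). Fkbp1a, whose product binds the type I receptor, also fell in both (-0.80 and -0.53). So did the feedback inhibitor gene Pmepa1 (-0.58 and -0.67).

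Of 34 tested genes known as TGF-beta targets, 10 rose and 21 fell after the knockdown, and 9 rose and 21 fell with the TEAD inhibitor (medians -0.54 and -0.64). Of all genes tested 36.1% and 26.3% fell. Several of them, Ccn2 and Thbs1 included, are also known targets of YAP1 and TAZ. Ccn2, a matricellular protein gene, fell from 48.2 ± 3.19 CPM to 9.0 ± 1.58 CPM and from 65.3 ± 3.90 CPM to 5.40 ± 0.467 CPM (SD, n = 3), log2 changes of -2.31 and -3.37. Tagln, an actin-binding protein gene, had log2 changes of -2.24 after the knockdown and -3.71 with the TEAD inhibitor. Among those that rose in both, as Tgfbi did, were the transcription factor genes Junb (1.28 and 1.07) and Klf10 (1.15 and 0.60). The cell cycle inhibitor gene Cdkn1a rose in both as well (0.54 and 0.91). The named genes of this list passed with adjusted p of at most 4.99e-09 (limma).

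Of the 6 tested genes of BMP antagonists and the ID targets of BMP signalling, 4 rose and 2 fell in both experiments. Id1 rose by 2.08 and 1.22, from 4.57 ± 0.786 CPM to 22.5 ± 0.418 CPM and from 7.22 ± 0.835 CPM to 18.2 ± 2.57 CPM (SD, n = 3). Id2 rose by 0.80 after the knockdown and by 0.41 with the TEAD inhibitor. Id3 had a log2 change of -0.20 after the knockdown (limma adjusted p = 0.0322) and rose by 0.50 with the TEAD inhibitor. The antagonist gene Twsg1 rose by 0.20 after the knockdown and fell with the TEAD inhibitor (log2 change -0.15). The 2 genes that fell after the knockdown were 1 or 0 in 5 alternatives, among them 0 without siControl C and 0 without siYAP1+TAZ A, and 1 without siControl A and without siYAP1+TAZ B.

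**Figure D4:**
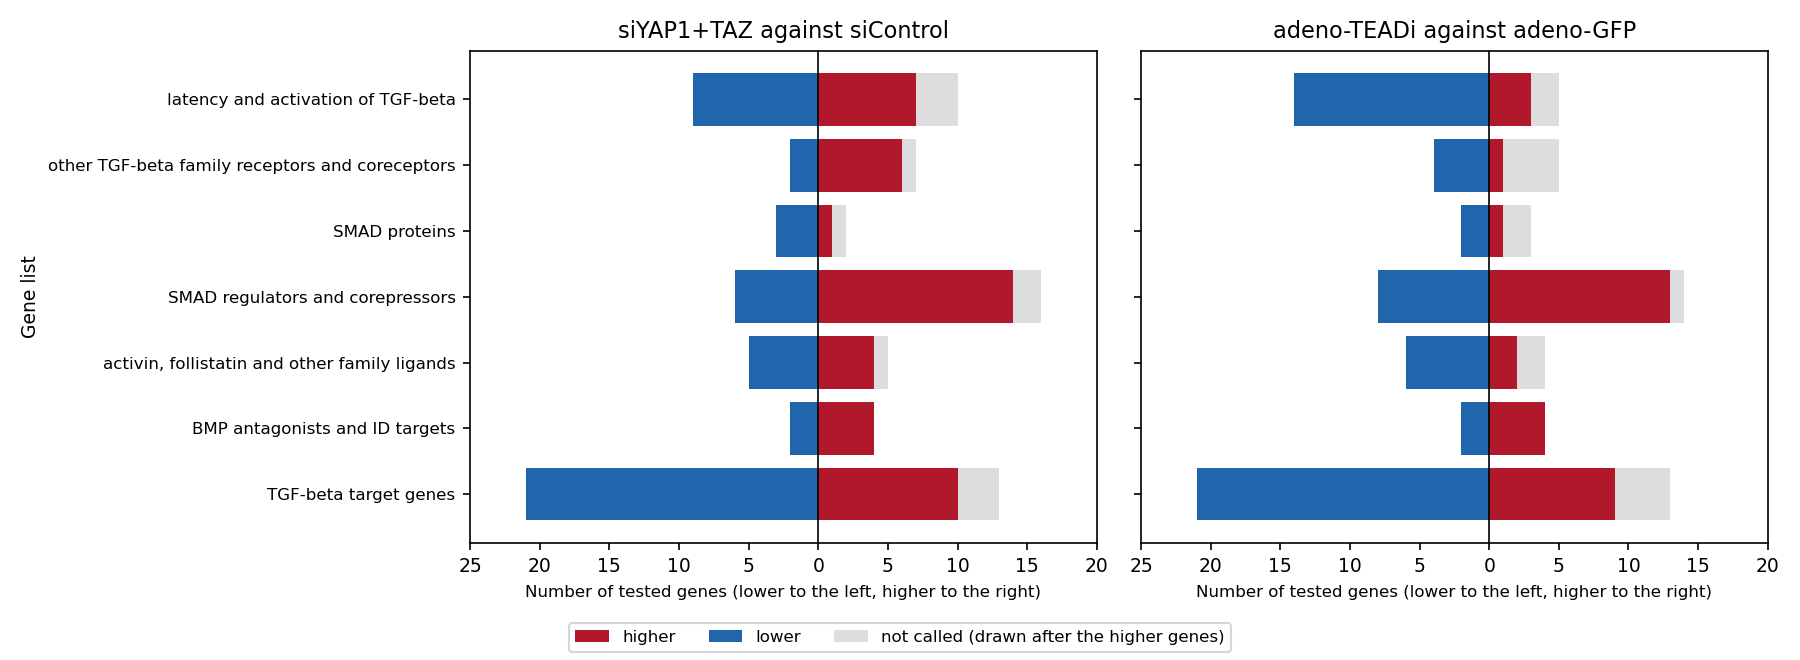
Number of tested genes of 7 TGF-beta pathway lists that were higher (red, right), lower (blue, left) or did not pass (grey, drawn after red) in each comparison (limma, adjusted p under 0.05). Of the 34 TGF-beta target genes 21 were lower in each comparison, and of the 19 latency and activation genes 9 and 14 were lower.

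For each member, the genes with the most similar pattern were found over the 12 libraries, by the root mean square difference on log2(CPM + 1) after each gene was centred on its own mean. Closest to Tgfb3 were Dok2 (0.140) and Odaph (0.171), where Tgfb3 itself varied by 0.985 on the same scale. Dok2 had means of 5.59 CPM for siControl, 0.653 CPM for siYAP1+TAZ, 3.37 CPM for adeno-GFP and 0.503 CPM for adeno-TEADi. Closest to Inhba were Flrt2 (0.0648) and Tceal9 (0.0773), to Tgfb2 Itpripl2 (0.0745) and Slco2a1 (0.0866), and to Tgfb1 Spag7 (0.0619) and Ltbr (0.0625). Inhba itself varied by 0.768, Tgfb2 by 0.490 and Tgfb1 by only 0.0982. The distances from Tgfb1 are thus large beside its own variation.

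Among the receptors, Tgfbr2 had the closest neighbours of all, Ctdspl (0.0435) and Ddb1 (0.0458), and Tgfbr1 was closest to Nt5e (0.0846) and Fam126b (0.0901). Tgfbr3 lay close to Ppm1d (0.0998). Acvrl1 had the most distant ones, Ctsz (0.238) and Prl8a1 (0.271), against its own variation of 0.695. Ctsz, a lysosomal protease gene, was at 4.80 CPM in siControl, 3.27 CPM in siYAP1+TAZ, 4.99 CPM in adeno-GFP and 12.8 CPM in adeno-TEADi. Smad7 lay nearest to Aars (0.0773) and Gars (0.0926), both tRNA synthetase genes, and Tgfbi to Hbegf (0.0650), an EGF receptor ligand gene, and Pak6 (0.0781).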

How the data were processed

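Messenger RNA was sequenced from 12 libraries in 4 groups of 3. The authors deposited a CPM table of 17090 genes on mm10, TMM-scaled per the file's name. A second deposited table of the authors holds linear ratios and p-values per comparison, and was used only for a check: in the authors' deposited table the ratio of Smad7 after the knockdown was 1.09 and its false discovery rate 0.0776. Partek 8.0.19.0819, STAR 2.7.0f and cutadapt 1.18 are named per the submitters' processing notes, with mm10. The counting rule, including any use of strand, is not given in the labels used here.

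Low values lay within 0.1 read of whole multiples in 83.9% to 86.1% of cases per library, under the 95% set as the minimum for recovering reads, so no count model was used. limma 3.58.1 in R 4.3.3 was fitted to log2(CPM + 1) for the 12966 genes that reached 1 CPM in 3 or more libraries (4124 were set aside), with all 12 libraries in 1 fit, a mean per group and a mean-dependent spread (eBayes with trend). The pseudocount of 1 CPM understates log2 changes of low genes. The script was tested on simulated data. Lengths are GENCODE vM21 exons, and 17073 of the 17090 deposited positions (99.9%) equal that annotation after 1 is subtracted from the end. The depth limits the precision of Tgfbr3 and Tgfb2 most.

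The members and lists were chosen with earlier results of these data known. All members are named, and of each other list at most 2 passing genes per direction and comparison, those with the largest change. For each member the 2 nearest of all genes tested are named. Some genes that these rules pick are not reported here. Alternatives were the pseudocount, the filter, the scaling, the trend, the replicate block, fits on the 6 libraries compared, and leaving out each library.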

Additional observations from a re-analysis of the deposited data

Results flagged for a closer look

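The results given here are those of the members and named genes whose effect differed between the virus and the siRNA experiment by limma's test of the difference. The genes with the largest differences of some lists are added. Each value is the log2 change with the TEAD inhibitor minus that after the knockdown, and 51.5% of all genes tested passed that test. Among the members the values were 2.23 for Acvrl1, 0.941 for Smad7, 0.622 for Tgfb3, 0.327 for Tgfbi, 0.23 for Tgfbr1, -0.17 for Inhba and -0.923 for Tgfbr3. That of Tgfbr1 did not pass in 9 of 18 alternatives, and that of Inhba did not with equal column totals.

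Among genes of latency and activation the difference was -1.47 for Plat, -0.719 for Pcsk6 and 0.212 for Itgb6, and the largest were -1.55 for Itgb8 and, in the other direction, 0.872 for Mmp9. Among other receptor genes it was -0.918 for Bambi and -0.551 for Bmpr1a. For Smad1 and the SMAD regulators it was -0.612 for Smad1, -0.52 for Usp4, -0.528 for Rnf111, -0.64 for Cited2, 0.266 for Fkbp1a and 0.317 for Wwp2. For the other ligands and their binding proteins it was -0.679 for Bmp7, -0.818 for Bmp6, 0.307 for Fst, 0.313 for Fstl3 and -0.917 for Fstl1. Among BMP antagonists and ID genes it was -0.861 for Id1, -0.389 for Id2, 0.694 for Id3 and -0.359 for Twsg1. That of Id2 passed narrowly (limma adjusted p = 0.0482) and passed in only 7 of 18 alternatives. Among TGF-beta targets it was -0.55 for Klf10, -1.07 for Ccn2, 0.372 for Cdkn1a and -1.47 for Tagln, and the largest were -1.66 for Timp3 and, in the other direction, 0.447 for Vcan. Acvrl1, Id3 and Twsg1 passed in both experiments with opposite signs, and so did Itgb8, Lrrc32, Mmp2, Bmpr2, Cd109, Ski and Itga5 of the pathway lists. How many of all genes tested did so was not counted. Some of these values were small: 0.20 and -0.15 for Twsg1, 0.19 and -0.15 for Ski, and -0.17 and 0.11 for Itga5. Equal column totals moved the median over all genes from -0.03 to -0.20 after the knockdown and from 0.03 to -0.06 with the TEAD inhibitor. Signs of values this small thus depend on the scaling. The knockdown value of Id3 passed in 14 of 19 alternatives. The groups hold 3 libraries each, so no single library was tested as an outlier.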

How the results depend on the processing

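Over the alternatives, 8 to 9 members passed after the knockdown, 8 with the TEAD inhibitor, 6 to 7 in the difference of the effects and 8 between the control groups. The genes passing over the whole table ranged from 8382 to 9983, 7188 to 8403, 6096 to 7175 and 4399 to 5432 in the same order. Of the values of single members under an alternative, 734 kept their direction and their side of the threshold, 10 no longer passed, 4 passed only there and 2 changed sign. The sign changes came with equal column totals, where Smad7 after the knockdown was -0.0596 and Tgfb1 with the TEAD inhibitor was -0.0171, and neither passed. Equal totals shift the log2 changes of a comparison the same way, by less for low genes. After the knockdown Inhba went from -1.414 to -1.605 and the low Tgfbr3 from 1.025 to 0.8857. Equal totals brought the split over all genes to 4657 higher and 2518 lower in the difference of the effects, from 3424 and 3249. Between the control groups it became 3184 and 2214, from 2421 and 2823. Quantile normalization gave 3557 higher and 5572 lower after the knockdown.

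With the replicate block, Smad7 passed after the knockdown (limma adjusted p = 0.0327), so that 9 members passed, and no other member's call changed. It passed without siControl A as well (limma adjusted p = 0.0262). The block gave 4296 higher and 4765 lower genes after the knockdown and 4436 and 3481 with the TEAD inhibitor. Whether libraries of the same letter belong together is not stated in the labels. Deviations from the group means correlated at -0.0136, 0.0874 and 0.0276 between siRNA libraries of the same letter (A, B and C). Between virus libraries of the same letter they correlated at -0.00355, 0.147 and 0.161. Virus libraries B and C of unlike letter gave -0.166 and -0.143. Not every library correlated best with its own letter, so these values leave the pairing undecided. Limits: 3 libraries per group of unknown origin, a single harvest time, and low levels of Tgfb2 and Tgfbr3. Some named genes of the lists were low as well, such as Id2, Bmp3, Bmp6 and Bambi, with group means of 0.694 to 5.05 CPM. The use of strand is unstated for Tgfb2, Tgfb3 and Acvrl1, whose exons antisense genes overlap by 2.14% to 7.60%. Gm43422, on the same strand as Tgfbr3, shares 4.54% of its exon bases, which counting by strand would not separate.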

Other observations

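Between the control groups, which share their libraries with the other comparisons, most genes that store or activate latent TGF-beta were higher in adeno-GFP than in siControl. Of 19 tested, 14 were higher and 3 lower (limma, adjusted p under 0.05), with a median log2 change of 0.26 against -0.01 over all genes. Of all genes tested 40.4% passed, 18.7% higher and 21.8% lower. The gelatinase gene Mmp2 was higher by 0.60 (limma adjusted p = 5.30e-05) and the transglutaminase gene Tgm2 by 0.42 (0.00426). Both were low: the means in siControl and adeno-GFP were 1.60 and 2.95 CPM for Mmp2 and 1.17 and 1.90 CPM for Tgm2. Pcsk6 and the urokinase gene Plau were lower, with log2 changes of -0.64 (limma adjusted p = 4.64e-06) and -0.45 (1.44e-08).

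Of the 34 TGF-beta target genes, 10 were higher and 15 lower in adeno-GFP. This count and the next are set against 18.7% higher and 21.8% lower over all genes tested. Fn1, the gene of fibronectin, was higher by 1.13 (limma adjusted p = 1.59e-10) and Gadd45b by 0.73 (6.03e-09). Of the 22 regulators of SMAD proteins 4 were higher and 9 lower, with Nedd4l higher by 0.35 and Skil, a SMAD corepressor, lower with a log2 change of -0.46.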
